A study of Mus musculus with 8 samples.

Results

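The genes described here encode 9 enzymes that break down amino acids in the liver, taken by name as Tat, Tdo2, Hpd, Hgd, Fah, Hal, Uroc1, Sds and Gls2. All 9 were found among the 22059 gene rows in each of the 8 samples, and all 9 were among the 17081 genes that passed the filter on low counts. The samples were poly(A)-selected RNA from whole livers of wild-type FVB mice (FVB/NJ in the methods), with no treatment or altered allele, in biological duplicates at embryonic day 18 (E18), postnatal day 14 (P14), postnatal day 28 (P28) and in the adult, at 3 months. The labels give neither the sex nor the litter of the animals. With 2 samples against 2 an exact permutation test of a single value cannot go below p = 0.33. The tests below therefore come from the edgeR fit across all genes. Its p-values rest on the spread between these duplicate samples, estimated for each gene over all stages together. A p-value between later stages thus also carries the spread between the E18 samples.

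The liver is the main site where most amino acids that are not used for protein are taken apart. Their nitrogen enters transamination and the urea cycle, and their carbon enters glucose, ketone or energy production. Tat (tyrosine aminotransferase), Hpd (4-hydroxyphenylpyruvate dioxygenase), Hgd (homogentisate 1,2-dioxygenase) and Fah (fumarylacetoacetate hydrolase) act along the tyrosine route, which ends in fumarate and acetoacetate. Tdo2 (tryptophan 2,3-dioxygenase) opens the kynurenine route of tryptophan. Hal (histidine ammonia-lyase) and Uroc1 (urocanate hydratase) carry out consecutive steps of histidine breakdown. Sds (serine dehydratase) turns serine into pyruvate, and Gls2 (liver-type glutaminase) releases ammonia from glutamine. Several of these genes, Tat and Tdo2 among them, are textbook examples of genes switched on in rodent liver around and after birth and induced by glucocorticoid hormones or glucagon.

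Between 68154675 and 106055723 reads were counted on genes per sample. Levels are given as counts per 1000000 reads after TMM scaling (CPM), a scaling that sets the bulk of genes level between samples. The TMM factors were 1.598 and 1.539 at E18 and between 0.847 and 0.888 in the other 6 samples. A change was called when the false discovery rate (FDR) was below 0.1 and the fold change exceeded 3. A gene is said to differ at the FDR alone where the first condition was met, whatever its fold. The liver label was checked against marker genes. All 8 hepatocyte markers were detected in every sample, and the 5 kidney markers summed to at most 0.588 CPM in every sample. Exocrine pancreas markers summed to 239.9 and 517.8 CPM at E18, and they are taken up below. Stomach and gut markers summed to 12.1 and 10.7 CPM at E18 and to between 47.6 and 128.3 CPM in the 6 later samples, there nearly all from Fabp2. The liver of E18 also carried red-cell precursor RNA, given below beside the results that it moves with.

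All 9 enzyme mRNAs were lower at E18 than at every later stage. On the log2 scale the step from E18 to P14 was the largest for each of them. In CPM the means of Tat (0.481, 862.3 and 2105) and Tdo2 (0.232, 660.2 and 1684 at E18, P14 and P28) rose by more from P14 to P28. From E18 to P14 all 9 increased by more than 3-fold, where 13.8% of all genes tested were called increased. Their median log2 fold change was 5.22, against -0.03 over all genes tested. The 9 were chosen with earlier results of these data known, so these contrasts with all genes describe them and are not independent support. The 9 genes took 0.0349% and 0.0477% of all reads on genes in the E18 samples, 0.526% and 0.549% at P14, 0.775% and 0.826% by P28, and 1.03% and 0.976% in the adult.

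**Figure D1:**
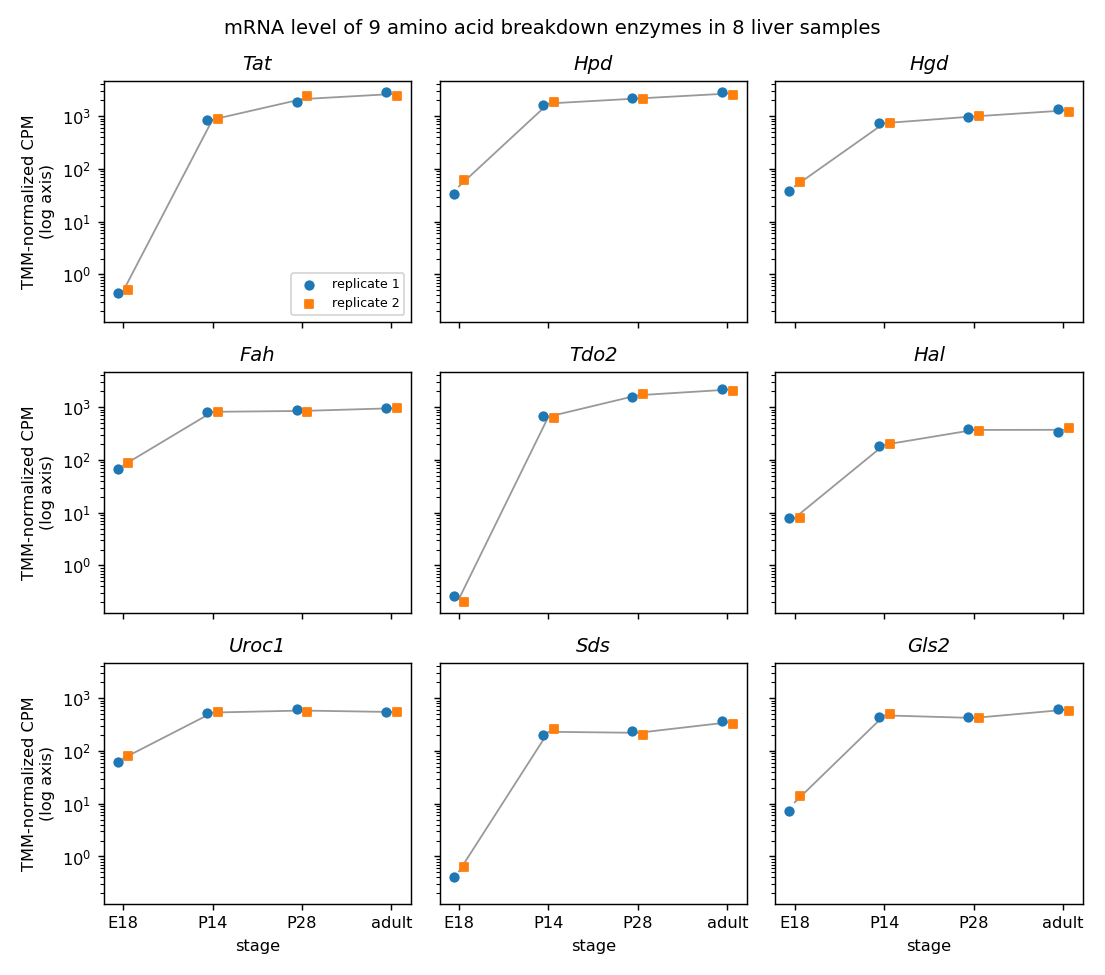
TMM-normalized CPM of each enzyme mRNA (vertical axis, log scale) at the 4 stages (horizontal axis). Circles and squares are replicates 1 and 2, and lines join the means of the 2 samples. Tat, Tdo2 and Sds start below 1 CPM at E18, whereas the other 6 start between 7.22 and 88.7 CPM.

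At the head of the tyrosine route, Tat was nearly silent before birth. Its level was 0.447 and 0.515 CPM in the E18 samples, 839.5 and 885.1 CPM in the P14 samples, 1829 and 2380 CPM in the P28 samples, and 2840 and 2408 CPM in the adult samples. The E18 values rested on 62 and 63 reads. No sample of one stage overlapped those of another. Tat increased by 10.81 (SE 0.24) on the log2 scale from E18 to P14 (edgeR adjusted p = 4.8e-09) and rose at the FDR alone by 1.29 (SE 0.15) from P14 to P28 (edgeR adjusted p = 0.00023). The further difference of 0.32 (SE 0.15) to the adult did not pass the test (edgeR adjusted p = 0.2).

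Hpd, which acts on the product of Tat, was already detected at E18. Its levels were 32.8 and 60.8 CPM at E18, 1639 and 1842 by P14, 2228 and 2105 by P28, and 2877 and 2481 in the adult. It increased by 5.22 (SE 0.29) from E18 to P14 (edgeR adjusted p = 3.7e-07). The later steps of 0.32 and 0.31 (SE 0.24 each) did not pass the test. P14 and adult differed at the FDR alone by 0.62 (SE 0.24, edgeR adjusted p = 0.057). These tests also carry the spread between the E18 samples. With only the 2 stages compared in the fit, P14 and P28 differed at the FDR alone (edgeR adjusted p = 0.017). P28 and adult did not (edgeR adjusted p = 0.13). For P14 to P28, DESeq2 gave an adjusted p of 0.2 and limma gave 0.39.

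Hgd, the dioxygenase that opens the ring of homogentisate, measured 38.3 and 55.3 CPM at E18, 735.9 and 740.5 by P14, 977 and 1001 by P28, and 1344 and 1210 in the adult. Each stage lay above the one before it without overlap. The rise from E18 to P14 was 3.98 (SE 0.18, edgeR adjusted p = 1.2e-07). The step of 0.42 (SE 0.16) from P14 to P28 differed at the FDR alone (edgeR adjusted p = 0.061), but not when a P14 or P28 sample was left out (adjusted p between 0.15 and 0.19).

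Fah, the final enzyme of the route and the one missing in hereditary tyrosinaemia of the severe type, had the highest E18 level of the 9 per transcript length (64.2 and 81.0 RPKM). It stood at 68.6 and 88.7 CPM at E18, 815.7 and 819.7 by P14, 870.6 and 827.8 by P28, and 948.5 and 959.1 in the adult. It increased by 3.38 (SE 0.14) from E18 to P14 (edgeR adjusted p = 7.6e-08). No later step passed the test, with differences of 0.05 and 0.17 (SE 0.13 each), and the P14 mean was already 85.7% of the adult mean.

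The increases along the tyrosine route from E18 to adult ran in the order Tat (12.41, SE 0.25), Hpd (5.84, SE 0.3), Hgd (4.77, SE 0.19) and Fah (3.6, SE 0.14) on the log2 scale, and these 4 act in that order. Gstz1, the isomerase that acts between Hgd and Fah, increased by 3.28 (SE 0.16), less than either, so the order of the values does not follow every step of the route. The differences between the genes were not tested. Per transcript length, in the deposited RPKM, the ratio of Tat to Hpd went from 0.00782 and 0.00486 at E18 to 0.294 and 0.275 at P14, and to 0.566 and 0.556 in the adult.

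Tdo2, the committing enzyme of tryptophan breakdown, had the lowest E18 level of the 9 per transcript length (0.236 and 0.181 RPKM) and the largest change. It rested on 36 and 25 reads at E18, or 0.259 and 0.204 CPM. It reached 691.8 and 628.7 CPM at P14, 1556 and 1811 by P28, and 2230 and 2065 in the adult. The 4 stages did not overlap. Tdo2 increased by 11.46 (SE 0.21) from E18 to P14 (edgeR adjusted p = 3e-09) and rose at the FDR alone by 1.35 (SE 0.13) from P14 to P28 (edgeR adjusted p = 7e-05). The difference of 0.35 (SE 0.13) between P28 and adult had an edgeR adjusted p of 0.103, just above the threshold, and DESeq2 gave 0.041.

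Hal and Uroc1 catalyse consecutive steps on histidine. Hal measured 8.03 and 7.94 CPM at E18, 184.3 and 204.3 by P14, 391.7 and 349.8 by P28, and 341.8 and 403.6 in the adult. It increased by 4.61 (SE 0.13) from E18 to P14 (edgeR adjusted p = 1.3e-08) and rose by 0.93 (SE 0.12) to P28 at the FDR alone (edgeR adjusted p = 0.00028), after which the P28 and adult samples overlapped. Uroc1 measured 62.4 and 81.8 CPM at E18, 528 and 541.5 by P14, 627.6 and 540 by P28, and 541.2 and 555.8 in the adult. It had the smallest change of the 9 from E18 to P14, 2.89 (SE 0.15, edgeR adjusted p = 2.5e-07). Its P14, P28 and adult samples overlapped, the P14 mean being 97.5% of the adult mean. In RPKM the ratio of Uroc1 to Hal went from 6.38 and 8.46 at E18 to 2.35 and 2.17 at P14, 1.31 and 1.27 by P28, and 1.3 and 1.13 in the adult. The ratios between genes, here and below, were not tested.

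Sds, a gluconeogenic enzyme of serine breakdown, was close to silent at E18, with 57 and 77 reads (0.411 and 0.629 CPM). Its levels were 197.7 and 264.4 CPM at P14, 238.1 and 203.4 by P28, and 363.4 and 331 in the adult. P14 and P28 overlapped, and the adult samples lay above both. Sds increased by 8.8 (SE 0.26) from E18 to P14 (edgeR adjusted p = 1.3e-08). From P28 to adult it rose by 0.65 (SE 0.17) at the FDR alone (edgeR adjusted p = 0.038), and the adjusted p was 0.19 without P28 replicate 2, 0.17 without adult replicate 1 and 0.11 without adult replicate 2. Sdsl, the related serine dehydratase-like gene, increased by 2.54 (SE 0.14) from E18 to adult. The RPKM ratio of Sds to Sdsl was 0.125 and 0.145 at E18, 7.55 and 10.1 by P14, and 16 and 15.4 in the adult, so the member with the higher RPKM differed between E18 and the later stages.

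Gls2 measured 7.22 and 14.1 CPM at E18, 448.9 and 496.8 by P14, 432.2 and 412.9 by P28, and 617.9 and 581.3 in the adult. It increased by 5.48 (SE 0.29) from E18 to P14 (edgeR adjusted p = 3.1e-07). The lower P28 level did not pass the test against either neighbour (-0.16 from P14 and 0.5 to the adult, SE 0.24 each). The P28 samples lay below those of P14 and of the adult without overlap. The spread in this fit also includes that between the E18 samples, which neither difference uses. When only the 2 stages compared were fitted, P28 and adult differed at the FDR alone (edgeR adjusted p = 0.018). DESeq2 gave an adjusted p of 0.11 for this difference, and limma gave 0.2. Glul, glutamine synthetase, which runs the opposite reaction, increased by 2.62 (SE 0.16) from E18 to adult. In RPKM Gls2 was 0.198 and 0.3 times Glul at E18, and 2.74 and 2.03 times Glul in the adult.

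After P14 the fold changes were smaller. None of the 9 was called changed from P14 to P28, where 3.61% of all genes were called increased and 5.98% decreased, nor from P28 to adult, where the shares were 0.767% and 2.24%. DESeq2 and limma called 0 of the 9 in both intervals as well. At an unadjusted edgeR p below 0.05 without the fold condition, 4 of the 9 were higher at P28 than at P14 and 3 were higher in the adult than at P28. The share of all genes at this unadjusted p was not counted, so these 2 counts have no background. At the FDR alone, Tat, Tdo2, Hal and Hgd rose from P14 to P28, where 53.8% of all genes differed in either direction. Sds was the member that rose at the FDR alone from P28 to adult, where 21.2% differed. The median log2 fold change of the 9 was 0.32 in each of these intervals, against -0.05 and 0.0 over all genes. Tat and Tdo2 also passed the 3-fold condition over the whole span from P14 to adult, with 1.61 (SE 0.15) and 1.7 (SE 0.13), where 4.35% of all genes were called increased.

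**Figure D2:**
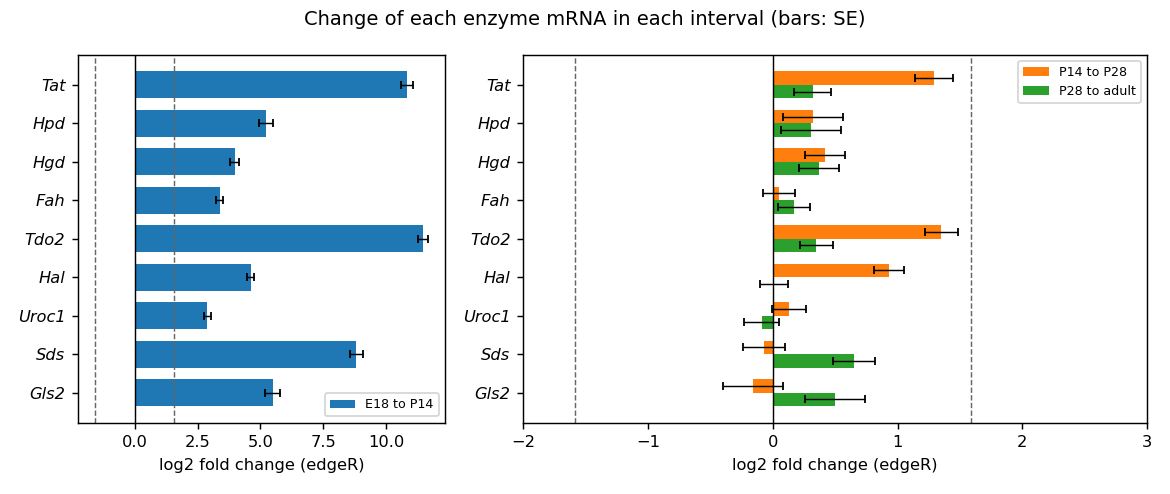
Log2 fold change of each enzyme mRNA (horizontal axis) in the interval from E18 to P14 (left) and in the 2 later intervals (right, another scale). Bars are edgeR estimates with their standard errors, and dashed lines mark a 3-fold change. All 9 bars on the left pass the line, from 2.89 for Uroc1 to 11.46 for Tdo2, and none on the right does.

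The 9 could also be ordered by how much of the adult level was in place at P14. The P14 mean was 30.7% of the adult mean for Tdo2, 32.9% for Tat, 52.1% for Hal, 57.8% for Hgd, 65.0% for Hpd, 66.6% for Sds, 78.9% for Gls2, 85.7% for Fah and 97.5% for Uroc1. P14 and adult differed at the FDR alone for the first 6 of these, where 61.1% of all genes differed in either direction, and the test was not passed by Gls2, Fah and Uroc1. Over the 9 genes, 14 of the 27 pairs of stages that were neighbours in level differed at the FDR alone. These 14 include the pair with E18 for each of the 9 genes. The pairs were ordered by the stage means of the same data, and no share over all genes was counted for such pairs. For each gene E18 was the lowest stage and differed from every later stage at the FDR alone, where 77.5%, 82.3% and 83.4% of all genes differed between E18 and P14, P28 and adult.

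The order of the enzymes within a sample was compared in RPKM, which corrects for transcript length. At E18 the order in both samples ran from Fah, Hpd and Hgd down to Uroc1, Gls2, Hal, Sds, Tat and Tdo2. In both adult samples it ran Hpd, Tdo2, Tat, Hgd, Fah, Sds, Gls2, Uroc1, Hal. Tdo2 and Tat therefore moved from the foot of the order to just below Hpd. The adult RPKM was 1663 and 1477 for Hpd, 1076 and 1026 for Tdo2, 941.3 and 822.1 for Tat, and 97.6 and 118.8 for Hal. Fah held the highest RPKM at E18, with 37.7% and 33.6% of the sum over the 9. Hpd held the highest at every later stage, with 28.6% to 36.3%.

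**Figure D3:**
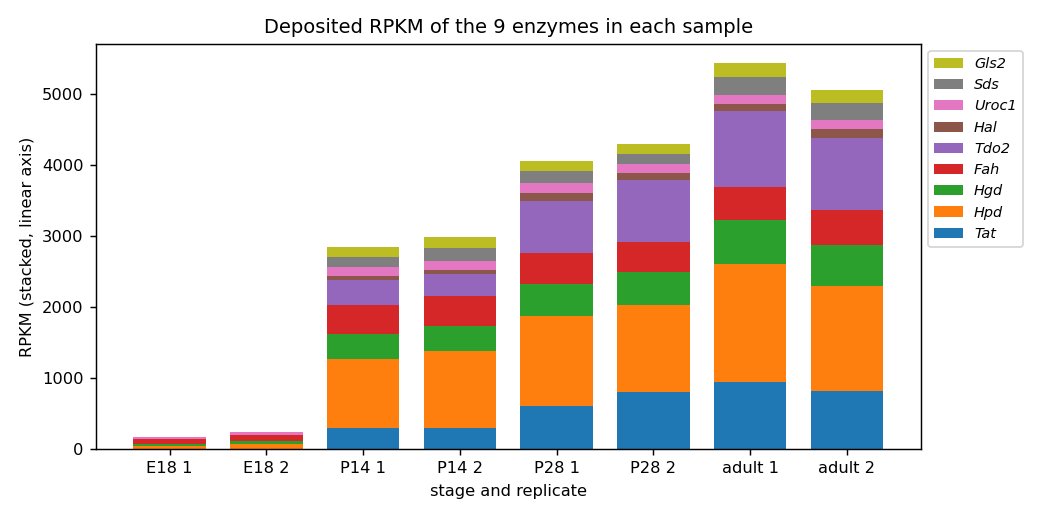
Deposited RPKM of the 9 enzymes (vertical axis, linear, stacked) in each of the 8 samples (horizontal axis). The summed RPKM was 170.3 and 241.4 at E18 and 5440 and 5067 in the adult, and Hpd, Tdo2 and Tat make up most of the adult columns.

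Of all genes tested, the profile nearest to Tat over the 8 samples was that of Tdo2, and the nearest to Tdo2 was that of Tat. The measure was the root mean square distance between log2(CPM + 0.5) profiles, each centred on its own mean, and it was 0.106 for this pair. The next nearest to both was Cyp1a2, a cytochrome P450 of drug metabolism, at 0.129 from Tat and 0.178 from Tdo2. Its CPM means were 0.12, 464.4, 1092 and 1433 from E18 to adult. The E18 means of Tat (0.481 CPM), Tdo2 (0.232 CPM) and Cyp1a2 lay below the 0.5 added before the logarithm. This narrows the differences between the 3 genes at E18, and how much of their likeness rests on it was not tested. Gls2 lay nearest to Hpd (0.174), and Fah lay nearest to Slc25a15, the mitochondrial ornithine carrier (0.068), and Gckr, the glucokinase regulator (0.075). The nearest profiles were Ephx2 and C8g for Hgd, 1190003J15Rik and Apol7a for Hpd, Rgl3 and Gm4788 for Hal, and Ninj1 and Rilp for Uroc1. Sds had no close neighbour by comparison, Hrg at 0.427 and Slco1b2 at 0.458 being the nearest. Among the 36 pairs within the 9, the distances ran from 0.106 for Tat and Tdo2 to 3.473 for Tdo2 and Uroc1. The distance is a description with no test, over samples of which pairs share a stage.

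The 9 genes lie on 7 chromosomes. In the GRCm38 annotation, which is not the mm9 build named for the files, Tat is at chr8:109990437-109999803 (plus strand), Tdo2 at chr3:81957090-81976202 (minus), Hpd at chr5:123171807-123182727 (minus), Hgd at chr16:37580153-37632020 (plus) and Fah at chr7:84585159-84606722 (minus). Hal is at chr10:93488768-93519304 (plus), Uroc1 at chr6:90333284-90364551 (plus), Sds at chr5:120476526-120483932 (plus) and Gls2 at chr10:128194457-128210004 (plus). All are protein-coding, and the counts are over their exons. Exons of Gls2 overlap those of Spryd4, and exons of Sds overlap those of Plbd2, on the opposite strand, and the sources do not say that strand was used in counting. Plbd2 had 3222 to 7634 reads per sample, where Sds had 57 and 77 at E18, so at most 77 of its reads can stand in an E18 count of Sds. Spryd4 had 3617 to 8858 reads per sample, more than the 1002 and 1721 of Gls2 at E18, and how many of these E18 reads came from Spryd4 was not tested. In the adult Gls2 had 35947 and 38597 reads.

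The promoters of 7 of the 9 genes were matched in the RefSeq table of GRCm38.p6. To set Tat, with a large rise, beside Hal, of intermediate course, and Fah, whose later changes did not pass the test, the 120 bases before the RefSeq start site are shown for these genes, on their own strand. The GENCODE annotation starts Tdo2 farther upstream, so that its RefSeq window is part of a transcript there, and it is not shown. The window of Fah lies outside annotated exons but within an intron of another Fah transcript, which GENCODE starts farther upstream. Capitals mark a CCAAT box, read as ATTGG on the other strand. In Hal they also mark a TATA box, read as TTTATA on the other strand. In Fah they mark a GC box, GGGCGG.
Tat, chr8:109990316-109990435, plus strand: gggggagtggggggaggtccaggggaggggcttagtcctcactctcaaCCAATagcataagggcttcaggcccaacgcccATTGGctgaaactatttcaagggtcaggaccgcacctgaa
Hal, chr10:93488648-93488767, plus strand: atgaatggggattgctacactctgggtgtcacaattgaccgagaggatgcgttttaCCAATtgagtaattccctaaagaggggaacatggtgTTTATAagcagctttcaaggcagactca
Fah, chr7:84605943-84606062, minus strand: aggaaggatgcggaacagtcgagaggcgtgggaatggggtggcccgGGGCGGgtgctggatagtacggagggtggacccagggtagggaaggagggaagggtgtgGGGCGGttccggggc

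Over 250 bases before the start site, searched on both strands, a CCAAT box was found in 5 of the 7 promoters (Tat, Tdo2, Hal, Hgd and Uroc1), against 33.8% of all 32851 promoters. In Tat it occurred at -72 and -40 relative to the RefSeq start and again at -168, and in Tdo2 at -78. The 7 windows include those of Tdo2 and Fah, which lie within a transcript and within an intron in GENCODE. A GC box (32.7% of all promoters) was found in Hpd and, at 3 places, in Fah. TATAAA (12.4% of all) was found in Hal at -28, in Hgd at -139 and in Tdo2 at -229. The C/EBP pattern TTGCNNAA (9.56%) was found in Hal and Hgd, and the FOXA pattern TNTTTAC (10.9%) in Hpd. AGAACA, part of the glucocorticoid receptor's site (16.1%), TGACGTCA, the cAMP response element (1.55%), CAAAGTCCA for HNF4 (0.384%) and GTTAAT for HNF1 (6.43%) were found in none of the 7 windows, which says only that these letters are not there. GC content over the window ran from 38.8% in Hgd, 45.6% in Hal and 46.4% in Tdo2 to 53.6% in Tat, 55.6% in Uroc1, 62.8% in Hpd and 64.4% in Fah, with a median of 52.4% over all promoters.

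The change from E18 was next set beside the make-up of the tissue, since in whole liver fewer cells of a type and less RNA per cell cannot be told apart. Of 8 erythroid markers, 7 were in the files, and their summed level was 8847 and 11410 CPM at E18 and between 72.3 and 83.0 CPM in the 6 later samples. The neutrophil markers summed to 635.1 and 698.9 CPM at E18 and to at most 93.0 CPM later. The summed hepatocyte markers went from 67590 and 62590 CPM at E18 to 328700 and 333200 at P14, and to 146300 and 120400 in the adult. Each of the 8 hepatocyte markers rose from E18 to P14, by 2.01 (Fgb and Trf) to 8.58 (Apoc3) on the log2 scale, with a median of 2.92. Tat, Tdo2 and Sds rose by more than all 8 markers, but Sds, at 8.8 (SE 0.26), lay close to Apoc3, and their difference was not tested. From E18 to adult Sds rose by 9.39 (SE 0.26), less than Apoc3 at 10.16. From E18 to P14 Hpd, Hgd, Fah, Hal and Gls2 rose by more than 7 of the 8, Apoc3 being the exception. Uroc1 rose by more than 4 of the 8. Fah, at 3.38 (SE 0.14), lay close to Ttr (3.33), Ahsg (3.25) and Apoa1 (3.14). The differences between these enzymes and the markers were not tested.

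When the samples were scaled to the hepatocyte markers in place of TMM, an alternative chosen after the data had been seen, 6 of the 9 were still called increased from E18 to P14. The values were 8.49 (SE 0.29) for Tdo2, 7.83 (SE 0.29) for Tat, 5.81 (SE 0.24) for Sds, 2.47 (SE 0.25) for Gls2, 2.21 (SE 0.25) for Hpd and 1.62 (SE 0.19) for Hal. Hgd rose by 0.98 (SE 0.21, edgeR adjusted p = 0.0001) and Fah by 0.39 (SE 0.2, edgeR adjusted p = 0.068), at the FDR alone, and Uroc1 stood at -0.1 (SE 0.2, edgeR adjusted p = 0.61), so that its rise could not be told from that of the markers. This scaling moved the median of all genes tested by -2.98 from E18 to P14 and by 0.48 from P14 to P28, and the share of all genes called under it was not counted. From P14 to P28, where the summed hepatocyte markers were lower at P28, Tat (1.78) and Tdo2 (1.83) passed the 3-fold condition under it.

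**Figure D4:**
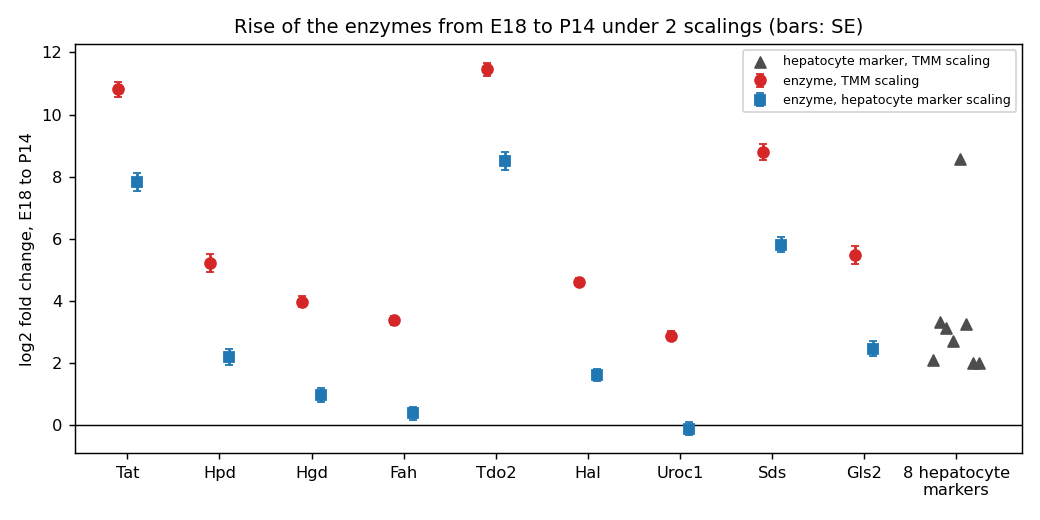
Log2 fold change from E18 to P14 (vertical axis) of each enzyme mRNA with TMM scaling (circles) and with scaling to 8 hepatocyte markers (squares), with standard errors, and of the 8 markers with TMM scaling (triangles). With marker scaling the values run from -0.1 for Uroc1 to 8.49 for Tdo2.

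The second E18 sample held more Gls2 and Hpd mRNA than the first, at 14.1 against 7.22 CPM and 60.8 against 32.8 CPM. Tat, Hgd, Fah, Uroc1 and Sds were also higher in the second sample, and Hal and Tdo2 were lower. Erythroid markers summed to 11410 CPM in the second against 8847 in the first, endocrine pancreas markers to 21.67 against 4.575, and hepatocyte markers to 62590 against 67590. Exocrine pancreas markers summed to 517.8 against 239.9 CPM over 8 genes. In the adult the same list summed to 104.8 and 119 CPM, nearly all from Cela1, with Pnliprp1, Cpa1, Pnlip and Cpb1 at 0. The part of this RNA in the E18 levels was not tested. Without E18 replicate 2 the rise to P14 was 6.04 for Gls2 and 5.74 for Hpd, and without replicate 1 it was 5.07 and 4.84.

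The other genes of amino acid metabolism, listed by pathway, mostly moved the same way between E18 and P14. Of 110 such genes in the files, 107 were tested, and 72 increased and 11 decreased by more than 3-fold from E18 to P14, against 13.8% increased and 15.4% decreased over all genes. From E18 to adult 78 increased and 11 decreased, against 16.8% and 23.8%. Their median log2 fold change from E18 to adult was 2.55, that of the 9 enzymes was 5.82, and that of all genes was -0.11. These lists too were chosen with earlier results of these data known, so the shares of all genes are given as description only. Changes after P14 were fewer. From P14 to P28, 7 increased and 3 decreased, against 3.61% and 5.98% of all genes. From P28 to adult, where 0.767% and 2.24% of all genes were called, 1 increased, Acmsd of the kynurenine route (1.62, SE 0.21), and 0 decreased, by edgeR, DESeq2 and limma alike. At an unadjusted edgeR p below 0.05 without the fold condition, 37 were higher in the adult and 12 lower. The share of all genes was not counted there. With hepatocyte marker scaling 5 increased and 35 decreased from E18 to P14, and 22 increased and 17 decreased from E18 to adult, so most of the increases given by list below are lost under it. The share of all genes called under that scaling was not counted.

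Around the tyrosine enzymes, all 4 genes of the phenylalanine list and all 4 of tetrahydrobiopterin supply, a cofactor of aromatic amino acid hydroxylation, increased from E18 to adult, but only 1 of each 4 was called with hepatocyte marker scaling. Among them were Qdpr (3.58), which recycles the cofactor, Gch1 (4.02), which begins its synthesis, and Gchfr (3.21), the feedback partner of Gch1. All 10 tested genes of the tryptophan and kynurenine list increased (6 with hepatocyte marker scaling), with Ido2 (11.77, SE 0.39) and Kynu, kynureninase (5.51, SE 0.25), at the top. Ido2 encodes another enzyme that acts on tryptophan and had 2 and 14 reads at E18 and 13022 and 14359 in the adult, so its fold rests on few reads. Ido1, with 0 to 5 reads per sample, did not pass the filter. In RPKM Tdo2 exceeded Ido2 by 18.4 and 17.6 times in the adult.

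Both other enzymes of the histidine route and Aldh1l1, which handles the folate-bound carbon, increased (2 of the 3 with hepatocyte marker scaling). Aldh1l1 rose by 5.58 (SE 0.28), Amdhd1 by 4.1 (SE 0.13) and Ftcd by 3.41 (SE 0.11). Of 17 tested genes of serine, glycine and threonine, 12 increased and 1 decreased (3 and 1 with hepatocyte marker scaling). Agxt, which transaminates glyoxylate to glycine, increased by 6.41 (SE 0.22) and Gnmt, glycine N-methyltransferase, by 6.28 (SE 0.29), while Dao, D-amino acid oxidase, had 73 and 34 reads at E18 and 0 and 1 in the adult. Of 9 genes of glutamine, glutamate and transamination, 5 increased and 2 decreased (3 and 2 with hepatocyte marker scaling). Aspg, an asparaginase (7.25, SE 0.47), and Gpt, alanine aminotransferase (6.63, SE 0.16), led the increases. Among the decreases was Asns, asparagine synthetase, a biosynthetic enzyme that went from 31780 and 25778 reads at E18 to 35 and 54 in the adult (-8.27, SE 0.2).

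Branched-chain amino acid genes increased in 18 of 21 cases, led by Aldh6a1 (3.58) and Bckdha (3.57), a subunit of the branched-chain keto acid dehydrogenase. With hepatocyte marker scaling edgeR called 0 of the 21 increased and 2 decreased. Bcat1, the transaminase used mainly outside the adult liver, was called decreased and had 201 and 136 reads at E18 and 0 in both adult samples. All 4 lysine genes increased, with Dhtkd1 at 3.36 and Gcdh at 3.23, and 0 of the 4 were called with hepatocyte marker scaling. In the proline and ornithine list Prodh, proline dehydrogenase (5.86, SE 0.16), and Oat (2.96, SE 0.19) led 4 increases (1 with hepatocyte marker scaling), and the 2 decreases included Pycr1 (-3.1), which makes proline. Of 3 tested cysteine genes 1 increased, Cdo1 (5.37, SE 0.14), cysteine dioxygenase. With hepatocyte marker scaling 1 of the 3 increased and 1 decreased.

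Of 13 genes that regulate the pathway, 8 increased and none decreased past the 3-fold condition from E18 to adult (2 and 2 with hepatocyte marker scaling). These were led by Gcgr, the glucagon receptor (4.44, SE 0.11), and Klf15, a transcription factor induced by glucocorticoids (3.92, SE 0.13). Nr3c1, the glucocorticoid receptor, rose at the FDR alone by 1.33 (SE 0.13), and Creb1 was lower in the adult at the FDR alone (-0.88, SE 0.1). Hepatocyte marker scaling shifted the median of all genes by -2.15 from E18 to adult, so that the rise of Nr3c1, and of any other gene that rose by less, changes sign under it. Of 13 amino acid transporters 5 increased, with Slc1a2, a glutamate carrier (7.09, SE 0.23), and Slc38a3, a glutamine carrier (4.7, SE 0.18), at the top. Another 5 decreased (2 increases and 7 decreases with hepatocyte marker scaling), with Slc6a19 at -5.97 (246 and 174 reads at E18, 2 and 1 in the adult) and Slc7a5, a large neutral amino acid carrier, at -5.21 (SE 0.2).

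**Figure D5:**
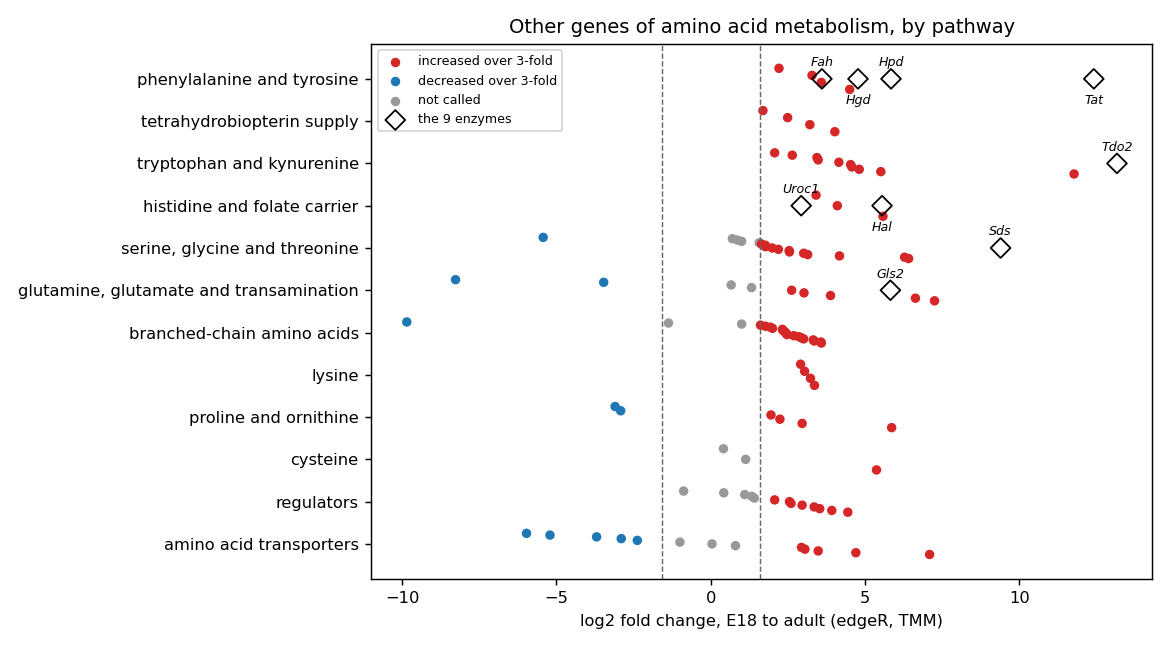
Log2 fold change from E18 to adult (horizontal axis) of 107 other genes of amino acid metabolism (dots, by pathway list) and of the 9 enzymes (diamonds), with dashed lines at a 3-fold change. Tdo2 and Tat lie farthest to the right, at 13.16 and 12.41, and the fitted value of Bcat1, at 0 reads in the adult, depends on the prior count of the fit.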

How the data were processed

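Whole-liver poly(A) RNA was sequenced by the authors as read pairs of 100 bp, 1 library per sample, and aligned to the mouse genome and transcriptome. The submitters' processing notes name mm9. The aligner, and how reads shared between genes were counted, are not given in the sources used here. The labels name Trizol and the study's methods a column kit for RNA isolation. The deposited files hold a raw read count per gene symbol and the authors' RPKM, a count divided by transcript length and by the mapped reads of the sample.

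Counts of all 8 samples entered one edgeR 4.0.16 quasi-likelihood fit (R 4.3.3) with TMM scaling, the filterByExpr filter on low counts and 1 coefficient per stage, and p-values were Benjamini-Hochberg adjusted over 17081 genes. The tests were two-sided. RPKM served to compare genes within a sample and for limma 3.58.1 on log2(RPKM + 0.1). The duplicates of a stage differed by more than sampling noise and were kept as 2 samples. Neighbouring intervals share samples, since each stage between E18 and adult enters an interval on either side. The code was tested on simulated data. Alternatives were DESeq2 1.42.0, median-ratio scaling, library size alone, no filter, at least 10 counts in every sample, the 2 stages alone, a replicate block, a FDR of 0.05, a threshold of 2-fold, leaving out 1 sample at a time and, added after the data were seen, scaling to hepatocyte markers. The members and lists were chosen with earlier results of these data known. Genes named beside the 9 are Glul and Sdsl, the 2 largest increases and decreases from E18 to adult in each pathway list, and the 2 nearest profiles per member (log2 CPM + 0.5). Ftcd, Gstz1, Acmsd, Ido1, Nr3c1, Creb1 and the marker genes were named after their values were seen. Some genes that the rule names are not reported here.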

Additional observations from a re-analysis of the deposited data

How the results depend on the processing

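The 9 enzymes were called increased from E18 to P14 and from E18 to adult under every alternative except hepatocyte marker scaling, which called 6 and 7. It left Hgd (0.98), Fah (0.39) and Uroc1 (-0.1, reversed) under 3-fold from E18 to P14 and Fah (1.44) and Uroc1 (0.76) from E18 to adult. From P14 to P28 it called 2 increased in place of 0, as did a 2-fold threshold. It turned Gls2 (0.32) and Sds (0.42) from P14 to P28 and Uroc1 (0.26) from P28 to adult upward. It gave 23 neighbouring levels that differ in place of 14, against 12 to 19 with a sample left out. With a sample left out, Hal from P28 to adult ranged from -0.12 to 0.12, Sds from P14 to P28 from -0.26 to 0.15, and Uroc1 from P28 to adult from -0.2 to 0.02, none of them past the test. Of 648 fold changes of the enzymes under 18 alternatives, 633 kept their direction and side of the threshold.

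For the other pathway genes, increases from E18 to P14 (72) numbered 43 with library size alone, 44 with limma and 5 with hepatocyte markers, and decreases (11) numbered 35 with hepatocyte markers. From E18 to adult hepatocyte markers gave 22 increases and 17 decreases. From P14 to P28 there were 15 increases with hepatocyte markers and 18 over 2-fold, with 1 decrease at 10 counts in every sample, 1 with limma and 5 over 2-fold. From P28 to adult there were 4 increases over 2-fold, and 0 to 1 with a sample left out, 0 without P28 replicate 1 or adult replicate 1. Library size alone moved the median of all genes by -0.87 from E18 to P14 and limma on RPKM by -0.71. The cause of these moves was not tested.

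Replicate numbers were not used to pair the samples in the main fit. The deviations of same-numbered samples correlated at -0.296 to 0.116 between stages. With 2 samples per stage, the deviations of the duplicates mirror each other, so this cannot show whether same-numbered samples shared a batch. With the number as a replicate block, 14 neighbouring levels differed and no call of the 9 enzymes changed. At E18 the 25 to 77 reads of Tat, Tdo2 and Sds limit how precisely their folds are known.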
